A study of Mus musculus with 16 samples.

Results

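The cytochrome P450 genes were described across tdTom+ and tdTom− epithelial cells of the mouse small intestine (SI). Of 45513 genes in the count files, 94 protein-coding genes had a symbol made of Cyp, a family number, letters and a gene number. Members were the 72 of these with at least 10 counts summed over the 16 libraries, with *Cyp51*, an enzyme of cholesterol synthesis, left out. They fell into 2 Cyp1, 40 Cyp2, 7 Cyp3 and 15 Cyp4 genes and 8 genes of other families. The rule used no comparison of the fractions. Symbols that end in a letter, such as Cyp3a41a, were outside it.

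Each of 8 Atoh1(WT)CreERT2 R26RtdTom mice gave 1 library of EpCAM+tdTom+ and 1 of EpCAM+tdTom− live cells. The sort for EpCAM, found on the surface of epithelial cells, kept the epithelium. In these mice CreERT2, a recombinase that tamoxifen activates, was placed downstream of the coding sequence of *Atoh1*, the transcription factor gene of the secretory lineage, and turned on the red reporter tdTomato (tdTom) for good in the cell and its progeny. The study used such libraries to define the transcripts of secretory cells. Both fractions shared the genotype (homozygous for the *Atoh1* allele and heterozygous for the reporter, C57BL/6 background, both sexes, 8 to 16 weeks old) and, per the labels, 1 mg tamoxifen per day on 3 days, and there was no untreated group. The proximal SI was fractionated and its villus-enriched part discarded, so the tdTom− libraries hold crypt-enriched epithelium outside the *Atoh1* trace. Neither fraction was a single cell type.

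Total counts ranged from 17116405 to 25323567 per library, and 3 counts corresponded to 0.123 to 0.191 CPM (counts scaled to a common library size by TMM), which is the level that a count of 0 allows. As a check of the labels, *Atoh1* rose from 0.718 ± 0.247 CPM in tdTom− to 62.5 ± 12.7 CPM in tdTom+ (SD, n = 8). Of fixed lists of 8 markers, all 8 goblet and all 8 Paneth genes were higher in tdTom+ and all 8 absorptive genes were lower, with log2 fold changes of -3.65 to -2.39. The summed absorptive markers ranged from 14550 to 38350 CPM among the tdTom− and from 1563 to 6021 CPM among the tdTom+ libraries. Of the other lists, 8 enteroendocrine, 7 tuft and 3 of 8 stem cell genes were higher, and the other stem cell genes did not pass. Of the 8 immune genes, 5 were lower (summed, 10.4 to 141 CPM in tdTom− and 5.68 to 28.3 CPM in tdTom+). The 2 stromal or endothelial genes tested did not pass (log2 fold changes of -0.14 and 0.33). Of all genes tested, 25.8% were higher and 30% lower at the same threshold, an adjusted p under 0.01. Of 8 hepatocyte markers, *Fga*, *Fgb* and *Fgg* were at 0 in every library, *Alb* (log2 fold change 1.24) and *Apoh* (1.75) were higher and *Serpinc1* (-2.24) lower in tdTom+, and the list summed to at most 4.80 CPM. The libraries of mouse 7 stood apart: its tdTom− library had the lowest absorptive sum (14550 CPM, against at least 24820 CPM in the other mice) and the highest stem cell marker sum (2866 CPM, against at most 1788 CPM). Counts of P450 genes are therefore given with and without mouse 7.

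P450 enzymes carry a haem group and use it to insert oxygen into their substrates, with electrons that come from NADPH through the reductase POR in the endoplasmic reticulum or through ferredoxin in mitochondria. The Cyp1, Cyp2 and Cyp3 families are known mainly for the oxidation of drugs and dietary compounds, and the Cyp4 family for the hydroxylation of fatty acids and eicosanoids. In the SI they are known as part of the first-pass metabolism that absorptive enterocytes carry out on what is taken up from the lumen.

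Most of the P450 genes that could be tested were lower in tdTom+ than in tdTom− cells, and 4 were higher. The largest decreases, of more than 3 on the log2 scale, were in Cyp3a, Cyp2c, Cyp2d and Cyp2b genes and in *Cyp1a1*. Of the 72 members, 48 passed the filter on low counts and were tested (edgeR quasi-likelihood F-test with the mouse as a block, Benjamini-Hochberg adjustment over all 15323 genes tested). Of these, 37 were lower in tdTom+ at an adjusted p under 0.01, where 30% of all genes tested were lower, and 4 were higher, where 25.8% of all genes were higher. The remaining 7 did not pass (55.8% of all genes passed in either direction). The median log2 fold change was -1.87 over the tested members and 0.02 over all genes tested.

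Large decreases were frequent. A log2 fold change of -1 or less was found in 31 members against 11.5% of all genes tested, and one of -2 or less in 23 members against 4.03%. In 23 tested members every tdTom+ library lay below every tdTom− library, which held for 17% of all genes tested, and 1 member lay wholly above, against 14.6%. A member could pass the low-count filter through its tdTom− libraries alone, so these shares describe the tested members and not all 72. The direction was the same in all 8 mice for 34 of the 37 lower members. These had been called by a test that pairs the fractions by mouse. The share over all genes called lower is not given, so this count describes the members alone. In sorted bulk RNA, fewer P450-expressing cells and less P450 RNA per cell cannot be told apart.

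All 37 members lower in tdTom+ had their lowest tdTom− value in mouse 7, whereas 56.2% of all genes called lower had it there. Without mouse 7, 50 members were tested, 40 were lower (30.3% of all genes) and 4 higher (28.2%), and the 37 were all among the 40. The log2 fold change of the 30 members named in full shifted by at most 0.15. The absorptive marker sum moved with the P450 genes, both between fractions and in mouse 7, and its part in the result was not tested.

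**Figure D1:**
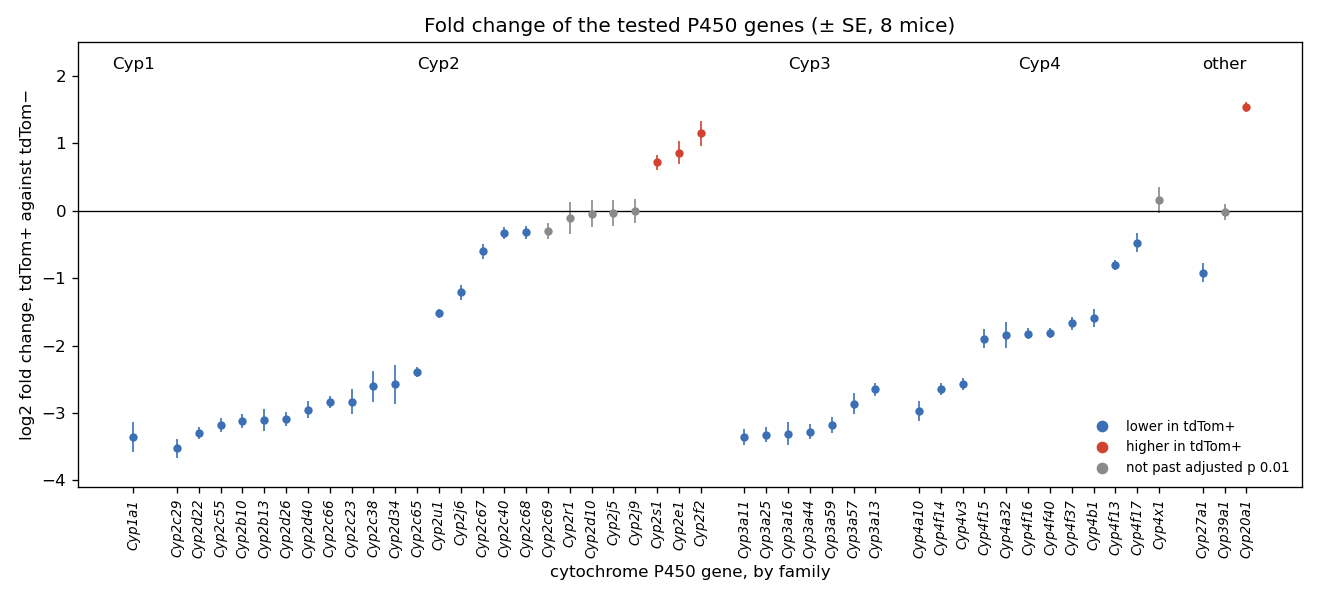
Log2 fold change of tdTom+ against tdTom− (vertical axis, points with bars of ± SE from the fit over 8 mice) for the 48 tested P450 genes, grouped by family on the horizontal axis. Blue points are lower in tdTom+, red higher, and grey did not pass an adjusted p of 0.01: the Cyp3 genes sit together between -3.36 and -2.65, while Cyp2 spans -3.52 to 1.15.

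Per length of transcript, the 72 genes together had a summed level of 2058 ± 593 FPKM (the CPM per kilobase of exon, from TMM-scaled counts) in tdTom− and 404 ± 109 FPKM in tdTom+ libraries (SD, n = 8). The lowest tdTom− library, mouse 7, stood at 836.5 FPKM and the highest tdTom+ library at 539 FPKM, so the fractions did not overlap. The mean ratio within a mouse was 5.10, and the sum was lower in tdTom+ in 8 of 8 mice. *Cyp4f14*, known for the hydroxylation of leukotriene B and vitamin E, had the highest level in both fractions, 335 ± 70.9 FPKM in tdTom− and 55.3 ± 18.3 FPKM in tdTom+. In tdTom− it was followed by *Cyp2d26* (219 FPKM), *Cyp3a13* (201), *Cyp3a25* (199) and *Cyp2b10* (177), and these neighbours differed by less than their SDs of 57.5 to 76.9 FPKM. In tdTom+ the order changed: *Cyp3a13* (31.6 FPKM), *Cyp2c68* (30.1), *Cyp2c65* (27.7) and *Cyp2d26* (26) came next, again within their SDs. There *Cyp2s1* (22) ranked above *Cyp2b10* (21.3). These SDs are the spread between mice. They do not measure how firm the order of genes was within a mouse, which was not tested.

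The balance of families shifted with the fraction. Cyp3 genes made up 28.8% ± 2.87 of the summed FPKM in tdTom− and 17.7% ± 2.77 in tdTom+, with no overlap between libraries, and Cyp2 genes 42.3% ± 2.05 and 48.7% ± 1.13, also without overlap. Within Cyp2, *Cyp2c68*, which shares sequence with other genes, had 38.4 FPKM in tdTom− and 30.1 FPKM in tdTom+. The Cyp4 share was 27.3% ± 3.51 and 27.9% ± 1.80. Genes of other families held 1.39% ± 0.362 and 5.57% ± 1.46, and Cyp1 genes held at most 0.399% of the sum in every library. *Cyp2s1* and *Cyp20a1* together went from 0.848% to 7.63%. These shares are a description of the libraries and were not tested.

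**Figure D2:**
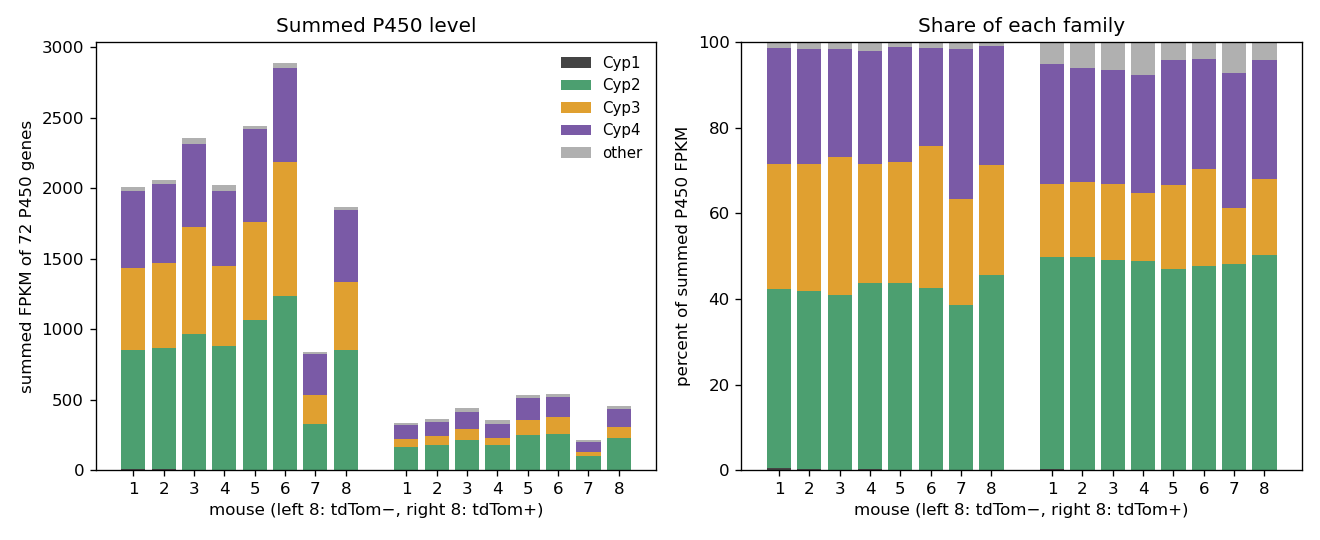
Left, summed FPKM of the 72 P450 genes in each library (bars stacked by family; mice 1 to 8 of tdTom− on the left and of tdTom+ on the right). Right, the share of each family in that sum in percent: in tdTom+ the bars are shorter (214.6 to 539 FPKM against 836.5 to 2889 FPKM) and the Cyp3 portion is smaller.

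The 7 Cyp3a genes, the family best known for drug and steroid oxidation in gut and liver, fell together. All 7 were lower in tdTom+, in 8 of 8 mice each, by 6.26-fold to 10.2-fold. *Cyp3a11*, the main drug-induced Cyp3a gene of mouse liver, had 199 to 1513 CPM (median 722) in tdTom− and 15.1 to 178 CPM (median 77.9) in tdTom+ (log2 fold change -3.36 ± 0.12, adjusted p = 2.3e-11). *Cyp3a25* had 123 to 611 CPM (median 397) in tdTom− and 12.4 to 75.6 CPM (median 38.3) in tdTom+ (log2 fold change -3.32 ± 0.11, adjusted p = 1.1e-11). *Cyp3a13*, which lies apart from the other 6 on chromosome 5, had 276 to 794 CPM (median 636) in tdTom− and 52 to 129 CPM (median 93.4) in tdTom+ (log2 fold change -2.65 ± 0.10, adjusted p = 4.2e-11). No tdTom+ library of these 3 genes reached the lowest tdTom− library, and within a mouse *Cyp3a11* was 7.24 to 14.3 times as high in tdTom−.

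The less counted Cyp3a genes were also lower. *Cyp3a59* had 17.1 to 85 CPM (median 55.3) in tdTom− and 2.4 to 11.5 CPM (median 6.18) in tdTom+ (log2 fold change -3.18 ± 0.12, adjusted p = 5.4e-11). *Cyp3a44* had 4.97 to 53 CPM (median 25.4) in tdTom− and 0.451 to 6.64 CPM (median 2.33) in tdTom+ (log2 fold change -3.28 ± 0.11, adjusted p = 1.2e-11). *Cyp3a16* had 4.83 to 42 CPM (median 19.3) in tdTom− and 0.251 to 5.45 CPM (median 1.8) in tdTom+ (log2 fold change -3.31 ± 0.17, adjusted p = 9.7e-10). The fractions overlapped for *Cyp3a16* and *Cyp3a44*, whose lowest tdTom− library was that of mouse 7, and *Cyp3a57*, under 10 CPM, changed by -2.86 ± 0.16. Some of these genes are hard to separate by short reads. To show how close the copies are around the cysteine that binds the haem, 60 bases of coding sequence there are given from GENCODE M21 transcripts (GRCm38), with capitals where a gene differs from *Cyp3a11*, the first line.
Cyp3a11: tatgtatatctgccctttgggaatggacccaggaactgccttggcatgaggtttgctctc
Cyp3a16: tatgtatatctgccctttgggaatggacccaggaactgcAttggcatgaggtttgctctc
Cyp3a44: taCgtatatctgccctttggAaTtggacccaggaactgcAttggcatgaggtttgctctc
Cyp3a25: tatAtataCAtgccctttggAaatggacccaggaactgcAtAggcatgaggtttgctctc
Cyp3a59: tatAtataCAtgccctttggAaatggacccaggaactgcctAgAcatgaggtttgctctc
Cyp3a57: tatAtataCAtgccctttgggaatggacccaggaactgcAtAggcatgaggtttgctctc
Cyp3a13: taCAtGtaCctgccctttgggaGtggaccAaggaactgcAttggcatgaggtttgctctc
*Cyp3a16* differed from *Cyp3a11* at 1 of these 60 bases, *Cyp3a25* and *Cyp3a59* at 6 each and *Cyp3a13* at 7. Over whole transcripts, 26.8% of the 50-base windows of *Cyp3a25* were also found in another gene, 25.2% in *Cyp3a59*, and the reads were 50 bases long. For *Cyp3a44* the shared part was 26.5%, most of all with Cyp3a41a (11.5%), and for *Cyp3a16* 10.7%, with 6.13% in *Cyp3a11*. Summed as 1 gene, *Cyp3a25* and *Cyp3a59* had a log2 fold change of -3.31 ± 0.11. In the sequence of *Cyp3a59* the usual haem-binding signature of P450 proteins was not found by the search, while 69 of the 72 members had it.

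Cyp2c genes, which include many arachidonic acid and drug oxidases, fell into a strongly and a weakly changed set. *Cyp2c55*, known as an arachidonic acid hydroxylase, had 44.3 to 265 CPM (median 131) in tdTom− and 4.06 to 33.7 CPM (median 14.7) in tdTom+ (log2 fold change -3.18 ± 0.10, adjusted p = 7.4e-12). *Cyp2c65* had 126 to 398 CPM (median 275) in tdTom− and 27.1 to 79.4 CPM (median 49.1) in tdTom+ (log2 fold change -2.39 ± 0.08, adjusted p = 2.0e-11). *Cyp2c66* had 52.5 to 277 CPM (median 167) in tdTom− and 8.22 to 40.6 CPM (median 22.3) in tdTom+ (log2 fold change -2.84 ± 0.09, adjusted p = 1.5e-11). None of these 3 genes overlapped between fractions. *Cyp2c29* had the lowest log2 fold change of all members, with 1.64 to 58.6 CPM (median 21.9) in tdTom− and 0.351 to 5 CPM (median 1.74) in tdTom+ (log2 fold change -3.52 ± 0.14, adjusted p = 7.2e-11), and overlapped through the tdTom− library of mouse 7. Below 10 CPM, *Cyp2c23* and *Cyp2c38* changed by -2.83 ± 0.19 and -2.60 ± 0.23.

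The other set fell by small amounts or did not pass. *Cyp2c68* had 31.9 to 89 CPM (median 68.4) in tdTom− and 37.5 to 60.3 CPM (median 52.5) in tdTom+, and its fold in tdTom− over tdTom+ was 0.851 to 1.72 among the mice (log2 fold change -0.32 ± 0.09, adjusted p = 0.00744). *Cyp2c40* had 7.8 to 20.3 CPM (median 16.9) in tdTom− and 8.27 to 16.1 CPM (median 12.7) in tdTom+, with a fold of 0.944 to 1.61 among the mice (log2 fold change -0.33 ± 0.09, adjusted p = 0.00676). For both genes the tdTom+ values lay within the range of the tdTom− values, and in 1 mouse, mouse 7, the order was inverted. Without the block for the mouse neither passed (log2 fold change -0.35 with adjusted p = 0.0528 for *Cyp2c68* and -0.35 with adjusted p = 0.0707 for *Cyp2c40*), and both calls were lost when most single mice were left out. *Cyp2c68* did not pass without any 1 of mice 1 to 6 and 8 (adjusted p = 0.0104 to 0.0755) and passed without mouse 7 (-0.39, adjusted p = 4.3e-04). *Cyp2c40* did not pass without mouse 1, 3, 4, 5, 6 or 8 (adjusted p = 0.0151 to 0.046) and passed without mouse 2 (-0.36, adjusted p = 0.0062) or mouse 7 (-0.38, adjusted p = 0.00169). *Cyp2c67* changed by -0.60 ± 0.11. *Cyp2c69* changed by -0.30 ± 0.12 (adjusted p = 0.043) and did not pass, and without mouse 7 it did (-0.39 ± 0.11, adjusted p = 0.00598).

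These 4 genes are near copies. In GENCODE M21 transcripts, 60.3% of the 50-base windows of *Cyp2c40* were found in another gene, 54.3% of those of *Cyp2c69*, 52.8% of *Cyp2c67* and 43.3% of *Cyp2c68*, so the division of reads among them is uncertain. Their 60 coding bases around the haem-binding cysteine are given beside those of the strongly changed *Cyp2c65* and *Cyp2c66*, with capitals where a gene differs from *Cyp2c40*, the first line.
Cyp2c40: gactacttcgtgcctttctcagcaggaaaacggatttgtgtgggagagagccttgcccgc
Cyp2c67: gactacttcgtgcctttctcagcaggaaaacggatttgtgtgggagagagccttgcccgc
Cyp2c69: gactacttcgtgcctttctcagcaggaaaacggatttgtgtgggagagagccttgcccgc
Cyp2c68: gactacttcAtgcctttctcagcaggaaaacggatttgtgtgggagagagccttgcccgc
Cyp2c65: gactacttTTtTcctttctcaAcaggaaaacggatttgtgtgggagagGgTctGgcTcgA
Cyp2c66: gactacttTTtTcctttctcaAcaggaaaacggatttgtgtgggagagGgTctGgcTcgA
*Cyp2c67* and *Cyp2c69* were identical to *Cyp2c40* over these bases, *Cyp2c68* differed at 1 and *Cyp2c65* and *Cyp2c66* at 9 each. Summed as 1 gene, the 4 near copies averaged 96.4 ± 24.4 CPM in the tdTom− and 74.5 ± 10.3 CPM in the tdTom+ libraries (SD, n = 8, log2 fold change -0.34 ± 0.09, adjusted p = 0.00462). The sum does not depend on how reads were divided within the set. *Cyp2c65* and *Cyp2c66* shared 20.6% and 19.5% of their windows, most of them (20.2% and 19.5%) with each other.

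The weakly changed genes are also neighbours. On chromosome 19 (GRCm38, bounds as in the deposited files), *Cyp2c55* (chr19:39007019-39042693), *Cyp2c65* (chr19:39061015-39093944), *Cyp2c66* (chr19:39113898-39187072) and *Cyp2c29* (chr19:39269405-39330713) come first and lie on the + strand. *Cyp2c38* and *Cyp2c39* follow, and then *Cyp2c67* (chr19:39608842-39649051), *Cyp2c68* (chr19:39688834-39741054), *Cyp2c40* (chr19:39767071-39812814) and *Cyp2c69* (chr19:39842660-39886769), all on the − strand and in a row among the members. The sets were told apart after their values were seen, so no test of the difference was made.

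**Figure D3:**
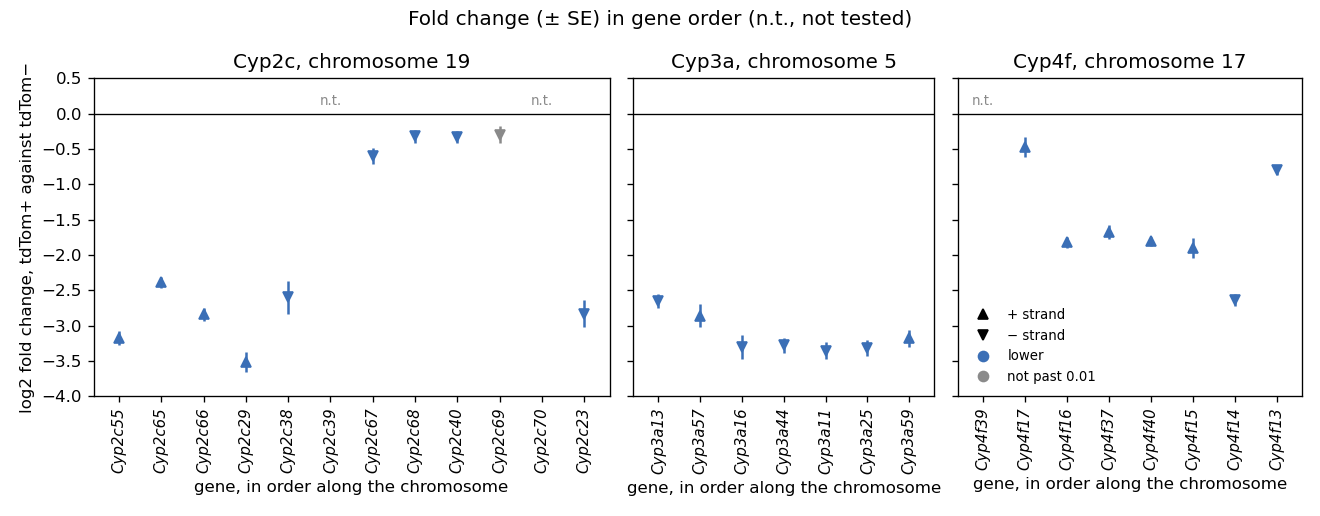
Log2 fold change (points, bars ± SE over 8 mice) of the Cyp2c, Cyp3a and Cyp4f genes in their order along chromosomes 19, 5 and 17, not to scale. Triangles point up for + strand and down for − strand genes and n.t. marks genes not tested: *Cyp2c67*, *Cyp2c68*, *Cyp2c40* and *Cyp2c69* lie between -0.60 and -0.30, and the Cyp3a genes all lie at -2.65 or below.

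A short motif near the start of transcription was found in genes of both Cyp2c sets. RefSeq promoters (GRCm38.p6, from 250 bases before to 50 after the start) were found for 60 of the 72 members and searched on both strands for CAAAGTC, a core of sites for the nuclear receptor HNF4, for TNGCGTG, the core bound by the dioxin receptor AhR, for CAGCTG, an E-box of the kind that ATOH1 and other helix-loop-helix factors bind, and for AGGTCA, the half-site of many nuclear receptors. None of these motifs contains another. CAAAGTC was in 15 of the 60 genes (23.5% of 68 member promoters, against 4.44% of all 32851 promoters), among them 9 of 11 Cyp2c genes, 2 of 7 Cyp3a and 2 of 5 Cyp2b genes. The 2 Cyp2c genes whose promoters did not hold it, *Cyp2c55* and *Cyp2c38*, are both of the strongly changed set. The windows of 30 bases around it are shown for 3 strongly and 2 weakly changed Cyp2c genes and for *Cyp3a11*, with CAAAGTC in capitals.
Cyp2c29: tatcaaagagaCAAAGTCtattagagagag
Cyp2c65: cgatgttggaaCAAAGTCcactgggaggag
Cyp2c66: ctatgttggaaCAAAGTCccctgcgaggag
Cyp2c68: tatcattgaaaCAAAGTCcaattggaagag
Cyp2c40: tatcattgagaCAAAGTCcatttggaagag
Cyp3a11: gaagagagtacCAAAGTCcagtgatgcaaa
They lie at chr19:39286965-39286994, chr19:39060879-39060908 and chr19:39113783-39113812 on the + strand and at chr19:39741160-39741189, chr19:39812841-39812870 and chr5:145879945-145879974 on the − strand. The windows of *Cyp2c29* and, in part, *Cyp3a11* lie inside the bounds that the deposited files give those genes, since the RefSeq starts differ from the starts in the files. CAGCTG was in 29.4% of member promoters against 16.3% of all, AGGTCA in 25% against 16.3%, and TNGCGTG in 1.47% against 5.07%, where *Cyp2c68* was the 1 gene that held it. Paralogues share promoter sequence, so these genes are not independent, and a match is not evidence of binding.

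Other Cyp2 genes with a high level fell as well. *Cyp2b10*, the standard target gene of the xenobiotic receptor CAR, had 124 to 532 CPM (median 373) in tdTom− and 13.8 to 83.7 CPM (median 39.3) in tdTom+ (log2 fold change -3.12 ± 0.10, adjusted p = 1.6e-11). *Cyp2b13* had 3.38 to 16.2 CPM (median 11.3) in tdTom− and 0.2 to 2.67 CPM (median 1.24) in tdTom+ (log2 fold change -3.10 ± 0.16, adjusted p = 7.0e-10). Neither overlapped between fractions, and within a mouse *Cyp2b10* was 6.35 to 11.7 times as high in tdTom−. *Cyp2b13* shared 27.3% of its windows with other genes, most of all Gm45225 (13.8%). Of the windows of *Cyp2b10*, 6.94% were found in *Cyp2b13*. Part of the reads of *Cyp2b13* could therefore come from the more counted *Cyp2b10*. A fall of *Cyp2b13* apart from that of *Cyp2b10* was not tested. *Cyp2d26* had 117 to 438 CPM (median 394) in tdTom− and 14.9 to 66.6 CPM (median 40.0) in tdTom+ (log2 fold change -3.09 ± 0.10, adjusted p = 8.6e-12). *Cyp2d22* had 23.4 to 71.8 CPM (median 61.6) in tdTom− and 2.56 to 9.53 CPM (median 5.07) in tdTom+ (log2 fold change -3.30 ± 0.09, adjusted p = 1.5e-12). Of 5 Cyp2d genes tested, 4 were lower, with *Cyp2d40* and *Cyp2d34* at -2.95 ± 0.13 and -2.57 ± 0.29, and *Cyp2d10* did not pass (-0.04 ± 0.20, adjusted p = 0.862). *Cyp2d10* shared 35.8% of its windows with other genes, most of all *Cyp2d11*, and summed with it had a log2 fold change of -0.88 ± 0.15 (adjusted p = 1.8e-04).

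*Cyp2j6* and *Cyp2u1* fell by smaller amounts. *Cyp2j6*, of the arachidonic acid epoxygenase subfamily, had 75.8 to 298 CPM (median 207) in tdTom− and 57.2 to 105 CPM (median 83.9) in tdTom+ (log2 fold change -1.21 ± 0.11, adjusted p = 2.3e-07). *Cyp2u1*, a fatty acid hydroxylase, had 9.3 to 25.8 CPM (median 19.3) in tdTom− and 3.76 to 7.74 CPM (median 6.71) in tdTom+ (log2 fold change -1.52 ± 0.07, adjusted p = 5.2e-10). *Cyp2u1* fell in 8 of 8 mice and the fractions did not overlap, whereas those of *Cyp2j6* did. Its relatives *Cyp2j5* (-0.03 ± 0.19, adjusted p = 0.911) and *Cyp2j9* (0.00 ± 0.18, adjusted p = 0.986) did not pass. *Cyp2r1*, a vitamin D hydroxylase, did not pass either (-0.11 ± 0.24, adjusted p = 0.707).

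In the Cyp4 family 11 of 12 tested genes were lower. *Cyp4f14* had 441 to 1014 CPM (median 832) in tdTom− and 69.5 to 209 CPM (median 122) in tdTom+ (log2 fold change -2.64 ± 0.09, adjusted p = 1.5e-11). *Cyp4v3*, a fatty acid hydroxylase, had 209 to 739.7 CPM (median 459) in tdTom− and 44.8 to 125 CPM (median 74.9) in tdTom+ (log2 fold change -2.57 ± 0.09, adjusted p = 1.6e-11). Neither overlapped between fractions. Of the exon bases of *Cyp4v3*, 36.3% were also annotated to Gm45753 on the same strand, and reads there were assigned to neither gene. *Cyp4b1*, known for the oxidation of medium-length fatty acids and plant toxins, had 20.02 to 68.8 CPM (median 46.2) in tdTom− and 11.1 to 19.2 CPM (median 15.2) in tdTom+ (log2 fold change -1.59 ± 0.14, adjusted p = 3.3e-07). *Cyp4a10*, a fatty acid hydroxylase gene and classical target of PPARα, was under 10 CPM and changed by -2.97 ± 0.15, and summed with *Cyp4a32*, with which it shared 24.5% of its windows, by -2.73 ± 0.14.

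All 7 tested Cyp4f genes were lower, to unequal degrees. *Cyp4f16* had 78.2 to 168 CPM (median 138) in tdTom− and 27.5 to 44.9 CPM (median 36.8) in tdTom+ (log2 fold change -1.82 ± 0.08, adjusted p = 3.4e-10). *Cyp4f40* had 49 to 72.7 CPM (median 69.5) in tdTom− and 13 to 26.2 CPM (median 18.8) in tdTom+ (log2 fold change -1.81 ± 0.07, adjusted p = 3.5e-11). *Cyp4f37* had 10.7 to 23 CPM (median 20.4) in tdTom− and 4.36 to 8.3 CPM (median 5.77) in tdTom+ (log2 fold change -1.67 ± 0.10, adjusted p = 3.9e-09). These 3 genes lie side by side with *Cyp4f15* (-1.90 ± 0.14) on chromosome 17, and their log2 fold changes lay between -1.90 and -1.67. *Cyp4f16* and *Cyp4f37* shared 16.3% and 18.9% of their 50-base windows with each other, so part of their reads could be exchanged. *Cyp4f13* (chr17:32924688-32947402), the neighbour of *Cyp4f14* (chr17:32905071-32917342) on the same strand, had 26.3 to 67.3 CPM (median 57.5) in tdTom− and 19.4 to 38.7 CPM (median 31.5) in tdTom+ and overlapped between fractions (log2 fold change -0.80 ± 0.07, adjusted p = 2.9e-07). *Cyp4f17*, next to *Cyp4f16* on its other side, changed by -0.47 ± 0.14 (adjusted p = 0.00818). *Cyp4x1* was the 1 Cyp4 gene tested that did not pass (0.16 ± 0.19, adjusted p = 0.481).

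*Cyp1a1*, the gene most closely tied to the dioxin receptor AhR, was tested alone in its family and fell. It had 1.5 to 20.4 CPM (median 5.42) in tdTom− and 0 to 1.23 CPM (median 0.78) in tdTom+ (log2 fold change -3.36 ± 0.22, adjusted p = 1.1e-08), and was lower in tdTom+ in 8 of 8 mice. Its tdTom− level varied 13.6-fold between mice, lowest in mouse 7 and highest in mouse 1, and its tdTom+ library of mouse 7 held 0 counts. *Cyp1a2* had 23 counts in all and was not tested.

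The 4 members higher in tdTom+ came from separate subfamilies. *Cyp20a1*, a P450 without a known substrate, had 4.38 to 8.3 CPM (median 5.5) in tdTom− and 11.8 to 19.3 CPM (median 17.1) in tdTom+ (log2 fold change 1.54 ± 0.08, adjusted p = 1.0e-09), and was the 1 tested member whose tdTom+ libraries all lay above all tdTom− libraries. *Cyp2s1*, a P450 of epithelia outside the liver, had 55.5 to 76.8 CPM (median 60.7) in tdTom− and 63.8 to 147 CPM (median 113) in tdTom+ (log2 fold change 0.72 ± 0.11, adjusted p = 6.6e-05). It was higher in 8 of 8 mice, by 1.15 to 2.49 times, and the lowest tdTom+ value, in mouse 7, lay within the tdTom− range. Per length it was the more abundant of these genes, at 13.1 ± 1.86 FPKM in tdTom− and 22 ± 4.82 FPKM in tdTom+.

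*Cyp2e1*, the ethanol-oxidising P450, had 1.77 to 4.81 CPM (median 2.93) in tdTom− and 3.85 to 9.3 CPM (median 5.45) in tdTom+ (log2 fold change 0.86 ± 0.17, adjusted p = 4.7e-04). It was higher in 7 of 8 mice, mouse 7 being the exception, and without mouse 7 its log2 fold change was 1.01 (adjusted p = 1.6e-05). *Cyp2f2*, known from airway club cells, had 0.228 to 0.887 CPM (median 0.454) in tdTom− and 0.637 to 1.58 CPM (median 1.11) in tdTom+ (log2 fold change 1.15 ± 0.18, adjusted p = 6.4e-05) and was higher in 8 of 8 mice. Both stayed low per length, at 3.09 and 0.538 FPKM in tdTom+. The haem-binding signature was not found by the search in *Cyp20a1* and *Cyp2s1*, nor in *Cyp3a59*.

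Among the other families, *Cyp27a1*, a mitochondrial sterol hydroxylase of bile acid synthesis, had 9.81 to 79.9 CPM (median 50.2) in tdTom− and 9.42 to 44 CPM (median 24.8) in tdTom+ (log2 fold change -0.92 ± 0.14, adjusted p = 4.0e-05). It was lower in 8 of 8 mice, and without the block for the mouse it did not pass (-0.98, adjusted p = 0.0228). *Cyp39a1*, an oxysterol hydroxylase, did not pass (-0.02 ± 0.12, adjusted p = 0.869). The genes of retinoic acid breakdown (*Cyp26a1*, *Cyp26b1*) and steroid synthesis (*Cyp11a1*, *Cyp17a1*) were under the filter.

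**Figure D4:**
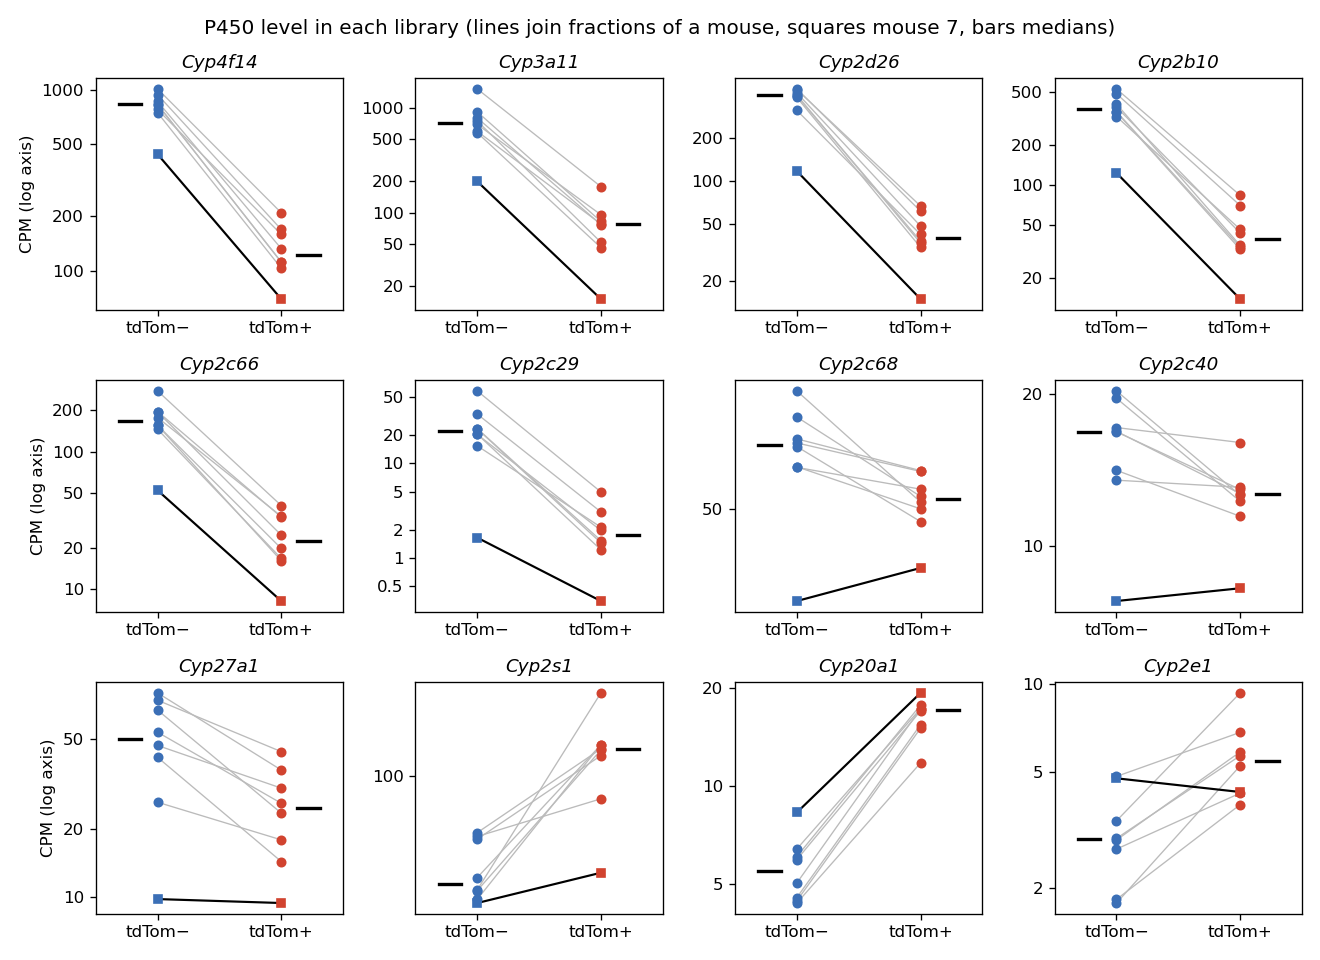
CPM on a log axis for 12 P450 genes in each tdTom− (blue) and tdTom+ (red) library, with lines joining the fractions of a mouse, squares for mouse 7 and black bars for the medians. The first 6 genes drop in every mouse, *Cyp2c68* and *Cyp2c40* overlap between fractions, and *Cyp20a1* is higher in every tdTom+ library.

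Of the members, 24 were under the filter, with 10 to 249 counts each over the 16 libraries. In 22 of them the mean was lower in tdTom+ and in 2 higher, with no such count made over other low-count genes. Fitted without the filter, 8 of the 24 were lower at an adjusted p under 0.01 in edgeR, where 18.5% of all genes were lower. None was higher in edgeR (0 by DESeq2, and 1 at an unadjusted p under 0.05 in edgeR), where 15.6% of all genes were higher. Both shares are over all 27852 genes of that fit, which include those that passed the filter. The share among low-count genes alone is not given, so these counts describe the 24 members alone. *Cyp2d12* (-3.19 ± 0.26, adjusted p = 8.7e-11) and *Cyp2d11* (-2.44 ± 0.26, adjusted p = 1.1e-08) were among the 8, and *Cyp27b1*, the vitamin D activating hydroxylase, had the highest value (2.23 ± 0.71, adjusted p = 0.0138) and did not pass. A further 22 genes with the symbol pattern had fewer than 10 counts, and 11 of these were at 0 in all libraries. *Cyp7a1*, the rate-limiting enzyme of bile acid synthesis in liver, was at 0, and *Cyp24a1*, the vitamin D degrading hydroxylase, had 2 counts.

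Transcripts of proteins that P450 enzymes depend on were mostly lower. Of 23 partner genes listed, 22 had an identifier and were tested, and 17 were lower and 1 higher in tdTom+, where 30% of all genes tested were lower and 25.8% higher. With a log2 change of 1 or more required, 8 were lower, where 11.5% of all genes were. *Por*, the reductase that passes electrons to P450s of the endoplasmic reticulum, fell from 245.8 to 90.5 CPM on average (log2 fold change -1.42 ± 0.08, adjusted p = 2.1e-09), and *Cyb5a*, cytochrome b5, from 289 to 105.5 CPM (log2 fold change -1.46 ± 0.06, adjusted p = 6.5e-11). *Cyb5r3*, cytochrome b5 reductase, fell most among the partners (591 against 158 CPM, log2 fold change -1.91 ± 0.07, adjusted p = 5.4e-11). In all, 8 of 10 electron transfer and P450-binding genes were lower, with a median log2 fold change of -1.18, and *Cyb5r1* and *Fdx1l* did not pass.

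Of 8 genes of haem synthesis 6 were lower, by small amounts (median -0.45). *Alas1*, the rate-limiting enzyme, had 137 against 61.3 CPM (log2 fold change -1.17 ± 0.05, adjusted p = 1.4e-10), and *Fech*, which inserts the iron, 37.4 against 31.4 CPM (log2 fold change -0.26 ± 0.06, adjusted p = 0.00161). *Fech* did not pass without mouse 3 (-0.13, adjusted p = 0.0956) or with at least 10 counts in every library (-0.14, adjusted p = 0.0535). In haem breakdown *Hmox1*, the inducible haem oxygenase, was higher (0.527 against 1.14 CPM, log2 fold change 1.13 ± 0.22, adjusted p = 5.5e-04) and the other 3 genes were lower.

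Receptors that control P450 genes, with their partners, were mostly lower. Of 20 listed, 19 were tested, and 15 were lower (30% of all genes tested were) and 0 higher (25.8% of all genes were) in edgeR, with 0 higher at an unadjusted p under 0.05 and 0 higher by DESeq2 or limma-voom. With a log2 change of 1 or more required, 8 were lower (11.5% of all genes were). *Nr1i3*, which encodes the xenobiotic receptor CAR, had 90.1 against 11 CPM (log2 fold change -3.04 ± 0.11, adjusted p = 3.0e-11), and *Nr1i2*, which encodes PXR, 113 against 33.6 CPM (log2 fold change -1.74 ± 0.09, adjusted p = 6.2e-10). *Nr0b2*, a repressor of nuclear receptors, had 3.13 against 0.52 CPM (log2 fold change -2.53 ± 0.26, adjusted p = 1.3e-06). *Ahr* had 15.9 against 9.76 CPM (log2 fold change -0.70 ± 0.07, adjusted p = 1.2e-06). All of these passed as lower. *Rara*, a retinoic acid receptor, had the smallest decrease among those that passed (log2 fold change -0.24 ± 0.05, adjusted p = 0.00165), and did not pass without mouse 3 (-0.16, adjusted p = 0.0212) or with at least 10 counts in every library (-0.12, adjusted p = 0.0595). *Hnf4a*, the gene of the factor whose core motif was searched, was at 609 against 593 CPM and did not pass (log2 fold change -0.04 ± 0.06, adjusted p = 0.613, and 0.01 to 0.08 without mouse 3, without mouse 7 or with at least 10 counts in every library). Its relative *Hnf4g* was lower (287 against 71.5 CPM, adjusted p = 8.0e-11). Every list was chosen with earlier results of these libraries known.

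**Figure D5:**
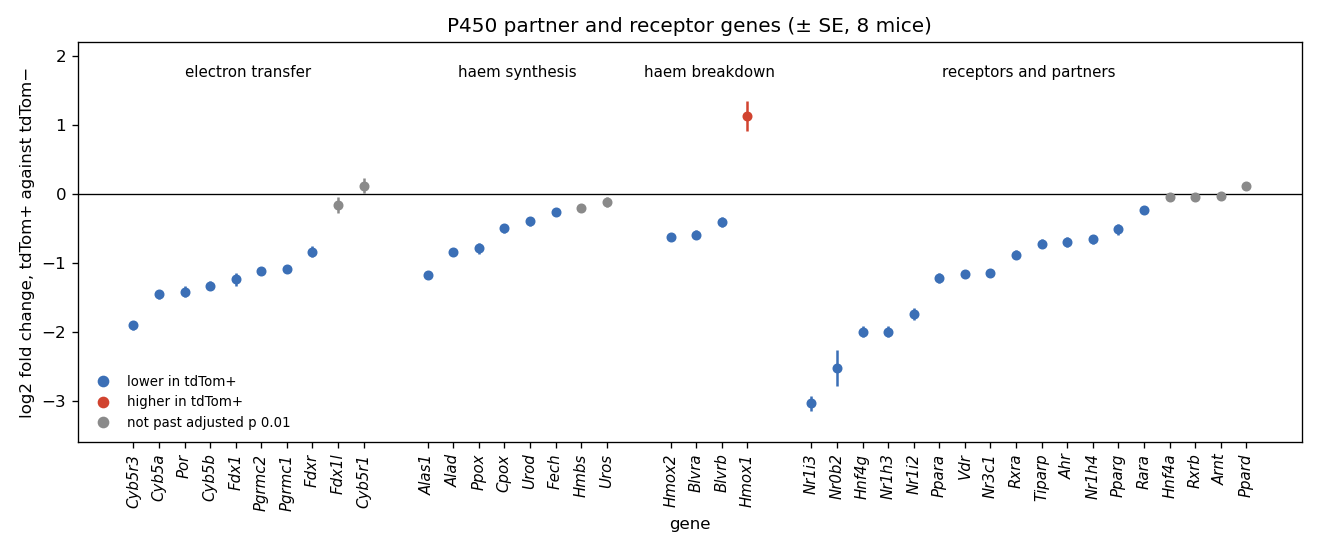
Log2 fold change (points, bars ± SE over 8 mice) of 22 partner genes of P450 enzymes and 18 receptors and their partners, sorted within each list, with colours as for the P450 genes. *Hmox1* is the 1 gene higher in tdTom+, *Nr1i3* has the lowest value at -3.04, and *Hnf4a* lies at -0.04.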

How the data were processed

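RNA was sequenced from 8 tdTom+ and 8 tdTom− libraries, paired by the mouse number in the sample titles. Per the file headers and methods of the study, the authors aligned 50-base single-end reads of stranded libraries with TopHat2 (version 2.1.1 in the submitters' processing notes) to GRCm38 and deposited raw counts per gene from featureCounts 1.5.0-p1 (the notes name Subread 1.5.2), with reverse-strand exon counting, 1 primary alignment for a read that maps to several places, and no count for a read that overlaps 2 genes. Paralogous P450 genes can therefore exchange reads. For the mice that define the secretory signature, the methods of the study give daily tamoxifen doses of 1 mg on 3 days, as the labels do. Under RNA sequencing the methods describe a single injection, which differs from the labels of these libraries. Replicates were separate mice.

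Symbols came from GENCODE M21 (GRCm38), which gave one for 44671 of 45513 identifiers. Counts were tested in R 4.3.3 with edgeR 4.0.16 (filterByExpr by group, TMM factors, quasi-likelihood F-test, the mouse as a block) and adjusted by the Benjamini-Hochberg method over 15323 genes, with a threshold of 0.01. SE is the log2 fold change divided by the square root of F. CPM and FPKM use TMM-scaled totals and the gene lengths in the deposited files. The numbers pair the libraries: the series states that each mouse gave both fractions, and deviations from the group means correlated between same-numbered libraries at 0.245 to 0.634, with 8 of 8 matching their own number best. The fit was also run on simulated data with far fewer changed genes than were called here, and no result rests on that run. No column of another sample was present.

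Named in full were members that averaged 10 CPM or more in either fraction, and members higher in tdTom+ that averaged 1 CPM or more there. Other members were named as at most 3 examples a family or where they did not pass or share sequence, the latter chosen after their values were seen. Of the partner and receptor lists, 6 fixed genes and those with the largest and smallest changes were named, and *Hnf4g* was added after its value was seen. The values of 1 gene of the receptor list are not reported here. Members and lists were chosen with earlier results of these data known. Shared sequence was counted as 50-base windows of M21 transcripts found in another gene, and genes linked by 25% or more were also summed. Alternatives were DESeq2 1.42.0 and limma-voom (limma 3.58.1), relative log expression or total-count scaling, TMM without the 10 most counted genes, no low-count filter or at least 10 counts in every library, thinning, no block, a threshold of 0.05, a required change of 1 or more on the log2 scale and each mouse left out. Protein sequences were not used here.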

Additional observations from a re-analysis of the deposited data

Results flagged for a closer look

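Among 8 libraries of a fraction, a value was singled out where its gap to the nearest other library made up more of the whole range than Dixon's limit for 8 values allows (the gap given is that share of the range). Of 84 sets of 8 values examined, for the members and partner and receptor genes named, 27 met this limit, where chance would give about 4.2 (1 in 20). All 27 came from mouse 7, each as the lowest value, 24 in tdTom− and 3 in tdTom+. The sets are genes read from the same libraries and are not independent. The 27 are therefore not separate events, and the number given for chance is only a guide.

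In the tdTom− library of mouse 7 the Cyp2 genes singled out were *Cyp2b10* (124 CPM, next lowest 329 CPM, gap 0.671), *Cyp2b13* (3.38 CPM, next lowest 9.25 CPM, gap 0.641), *Cyp2c29* (1.64 CPM, next lowest 15.4 CPM, gap 0.621), *Cyp2c40* (7.8 CPM, next lowest 13.5 CPM, gap 0.574), *Cyp2c65* (126 CPM, next lowest 251 CPM, gap 0.598), *Cyp2c66* (52.5 CPM, next lowest 146 CPM, gap 0.614), *Cyp2c68* (31.9 CPM, next lowest 61.3 CPM, gap 0.636), *Cyp2d22* (23.4 CPM, next lowest 46.6 CPM, gap 0.615) and *Cyp2d26* (117 CPM, next lowest 310.1 CPM, gap 0.739), and also *Cyp2j6* (75.8 CPM, next lowest 184 CPM, gap 0.649) and *Cyp2u1* (9.3 CPM, next lowest 16.8 CPM, gap 0.579). The Cyp3a genes were *Cyp3a11* (199 CPM, next lowest 579.9 CPM, gap 0.527), *Cyp3a16* (4.83 CPM, next lowest 15.2 CPM, gap 0.528), *Cyp3a25* (123 CPM, next lowest 319.9 CPM, gap 0.596), *Cyp3a44* (4.97 CPM, next lowest 19.1 CPM, gap 0.566) and *Cyp3a59* (17.1 CPM, next lowest 49.3 CPM, gap 0.66). The Cyp4 genes were *Cyp4b1* (20.02 CPM, next lowest 42.4 CPM, gap 0.606), *Cyp4f13* (26.3 CPM, next lowest 46.4 CPM, gap 0.603), *Cyp4f14* (441 CPM, next lowest 748 CPM, gap 0.636), *Cyp4f40* (49 CPM, next lowest 64.4 CPM, gap 0.694) and *Cyp4v3* (209 CPM, next lowest 432 CPM, gap 0.573). Of the partner genes they were *Por* (144 CPM, next lowest 233 CPM, gap 0.657), *Cyb5a* (194 CPM, next lowest 284 CPM, gap 0.683) and *Cyb5r3* (379 CPM, next lowest 552 CPM, gap 0.584).

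In the tdTom+ library of mouse 7 they were *Cyp2d26* (14.9 CPM, next lowest 34.2 CPM, gap 0.554), *Cyp2u1* (3.76 CPM, next lowest 6.27 CPM, gap 0.708) and *Por* (73.3 CPM, next lowest 87.3 CPM, gap 0.536). The same library pair had the lowest absorptive marker sum in tdTom− (14550 CPM). The part of that difference in these values was not tested.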

How the results depend on the processing

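The counts of P450 genes lower and higher in tdTom+ (37 and 4 as reported) were 34 and 4 with no replicate block, so that *Cyp2c40* (-0.35, adjusted p = 0.0707), *Cyp2c68* (-0.35, adjusted p = 0.0528) and *Cyp27a1* (-0.98, adjusted p = 0.0228) lost their call without the block. Of all genes, 4133 were lower and 3473 higher without the block, against 4600 and 3956 with it. The block changed no other call of the 42 genes named. With at least 10 counts in every library, which left 32 members to test, 22 were lower and 3 higher. *Cyp2f2*, with a lowest tdTom− count of 5, was not tested there. The partner list had 0 genes higher in edgeR (1 as reported), because *Hmox1*, with a lowest tdTom− count of 6, was not tested. The receptor list had 1 gene higher (*Ppard*, 0.23, adjusted p = 0.00542, 0 as reported). With a change of 1 or more on the log2 scale required, 2 P450 genes were higher, where 11.4% of all genes were. Under the same requirement 8 partner genes (17 as reported) and 8 receptor genes (15 as reported) were lower, where 11.5% of all genes were. DESeq2, which gave 71 members an adjusted p, called 41 P450 genes lower and 4 higher. Without the filter on low counts all 72 members were tested and 45 were lower, where 18.5% of all genes were lower. The share of all genes is not given for DESeq2 or for at least 10 counts in every library, so those counts describe the members alone. With linked near copies summed, an alternative chosen after seeing the data, 34 and 4 were called. Summing put 10 members into 4 groups, each of which was lower, so this smaller count goes with fewer units and not with lost calls.

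Leaving out each mouse in turn gave 33 to 40 P450 genes lower and 4 higher, 16 to 18 partner genes lower, 13 to 15 receptor genes lower and 0 to 1 receptor genes higher (*Ppard* at 0.17 without mouse 6, adjusted p = 0.00966). Among these fits the share of all genes called is given only for the fit without mouse 7. Of 745 values of named genes under alternatives, 715 kept direction and call, 27 kept the direction and lost the call, and 3 changed sign, all for *Hnf4a*: 0.08 with at least 10 counts in every library, 0.04 without mouse 3 and 0.01 without mouse 7, within a range of -0.05 to 0.04 when a mouse was left out. Those that lost the call were of *Cyp2c40*, *Cyp2c68*, *Cyp27a1*, *Fech* and *Rara*. The cause was not tested. The median log2 fold change of all genes was 0.12 in the fit without mouse 3 and in that with at least 10 counts in every library, against 0.02 as reported. The Cyp2 share of summed FPKM in tdTom+ was 47.1% with the 3 members that share 50% or more of their windows left out, against 48.7%, and the summed level stayed within its spread. *Cyp2c68*, the most counted of the 4 near copies (30.1 FPKM in tdTom+, 43.3% of windows shared), was kept. This value therefore does not show the Cyp2 share without the near copies. Depth limits the 24 members under the filter.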
